A study of Mus musculus with 6 samples.

Results

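Long interspersed nuclear elements (LINEs) are retrotransposons, stretches of DNA that were copied around the genome through an RNA intermediate by a reverse transcriptase that the intact element encodes. The regions described here are stretches of open chromatin in mouse lung fibroblasts whose annotation, as deposited, places them in a LINE. They were chosen by the repeat class named for each region in each of 3 deposited tables, each of which compares a pair of cultures. The table of plastic against 32 kPa held 1837 LINE regions among 64217 open regions, or 2.86%. The table of regions higher on 32 kPa than on 0.2 kPa held 21 LINE regions of 2121, and that of regions higher on plastic than on 0.2 kPa held 40 of 2114. No region in those 2 lists was higher on 0.2 kPa, so nothing can be said here of LINE regions that were more open on the soft surface.

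The assay was Omni-ATAC-seq, which uses a transposase to place sequencing adaptors in DNA that is open. The cells were primary lung fibroblasts sorted for GFP from Col1a1-GFP transgenic mice, in which a collagen I promoter drives the fluorescent protein, so the sort itself selected cells that use that promoter. All cultures shared this genotype, a collagen I coating of 0.1 mg/mL, medium with 10% serum and a harvest at day 8, with 50000 cells per library. The cultures were 0.2 kPa PDMS, a soft silicone surface, 32 kPa PDMS, a stiff one, and tissue-culture plastic, with 2 libraries of each. The comparisons ask which regions of chromatin differ in openness between fibroblasts grown on surfaces of different stiffness. The labels used here give neither the age of the mice nor whether a culture's 2 libraries had different animals behind them, so the p-values speak of the scatter of these libraries alone, and that scatter may be technical.

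The deposited levels are the authors' means per culture, as log2 normalised reads per region, and no value per library was at hand. The spread behind each level therefore cannot be given, and precision rests on the p-values and false discovery rates (FDR) that the authors obtained with DiffBind. A fold below is a difference of 2 such log2 means, stiffer culture minus softer or plastic minus 32 kPa. In these bulk samples more open cells and more open chromatin per cell cannot be told apart. Of 8 fibroblast marker genes, 7 had an open region within 1 kb of their start, at levels of 2.97 to 6.15 on plastic and 3.76 to 6.14 on 32 kPa, and Lum had none. None of 6 epithelial markers had one. Of 4 endothelial markers, Kdr and Tek had one, at 3.02 and 3.71 on plastic and 3.08 and 3.13 on 32 kPa. Of 4 leukocyte markers, Lyz2 had one, at 4.29 on plastic and 5.01 on 32 kPa. The part of other cell types in the results below was not tested.

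As background, LINE families differ in age. L1 is the family that still moves in mice: the L1Md elements include its young, mobile subfamilies, the Lx, L1_Mus, L1_Mur and L1VL elements are older rodent ones, and the L1M elements were shared by early mammals. L2 and CR1 (in mammals mostly L3 copies) are old fossils that no longer move. In most somatic cells LINEs are held in closed chromatin by DNA methylation, by histone H3 lysine methylation laid down through Trim28 and Setdb1, and by the HUSH complex, and old copies can serve as promoters or enhancers.

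To show what such DNA looks like, 5 promoter windows are printed that overlap an open region annotated as LINE. RefSeq promoter windows, which run from 250 bases before to 50 bases after a gene's start on the assembly GRCm38.p6 (that of mm10), overlapped 11 of the 1837 LINE regions. The 5 chosen cover L1, L2 and CR1 and include the 1 window whose LINE region was listed as higher on plastic than on 0.2 kPa. Each runs 5′ to 3′ on the strand of the gene, and capitals mark the bases inside the open LINE region.
Gm40007, L1MC4, chr2:172276164-172276463, minus strand: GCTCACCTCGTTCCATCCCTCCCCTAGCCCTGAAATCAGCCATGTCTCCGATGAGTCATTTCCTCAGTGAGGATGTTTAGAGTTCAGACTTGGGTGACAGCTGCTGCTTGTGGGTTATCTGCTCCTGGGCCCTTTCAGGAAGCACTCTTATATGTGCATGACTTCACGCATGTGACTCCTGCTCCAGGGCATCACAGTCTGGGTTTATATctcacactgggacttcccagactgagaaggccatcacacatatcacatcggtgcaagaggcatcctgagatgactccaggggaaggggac
Gm41309, L1MB7, chr15:38602237-38602536, minus strand: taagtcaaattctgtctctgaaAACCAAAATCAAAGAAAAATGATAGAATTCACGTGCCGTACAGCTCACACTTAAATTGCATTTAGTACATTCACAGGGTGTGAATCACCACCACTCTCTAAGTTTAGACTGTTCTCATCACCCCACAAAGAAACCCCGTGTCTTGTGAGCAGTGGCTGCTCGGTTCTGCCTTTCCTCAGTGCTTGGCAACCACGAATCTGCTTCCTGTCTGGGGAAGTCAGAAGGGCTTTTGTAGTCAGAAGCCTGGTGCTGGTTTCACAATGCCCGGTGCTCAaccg
Gm52253, L2a, chr16:76432561-76432860, plus strand: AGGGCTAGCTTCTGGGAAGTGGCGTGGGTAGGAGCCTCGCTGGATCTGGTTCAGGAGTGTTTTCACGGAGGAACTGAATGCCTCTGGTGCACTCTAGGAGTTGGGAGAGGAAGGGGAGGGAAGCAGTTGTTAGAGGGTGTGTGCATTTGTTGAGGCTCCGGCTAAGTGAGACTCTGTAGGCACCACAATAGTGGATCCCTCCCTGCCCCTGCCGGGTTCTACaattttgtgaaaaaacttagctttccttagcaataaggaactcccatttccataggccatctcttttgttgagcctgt
Gm5546, L2c, chr3:104360269-104360568, minus strand: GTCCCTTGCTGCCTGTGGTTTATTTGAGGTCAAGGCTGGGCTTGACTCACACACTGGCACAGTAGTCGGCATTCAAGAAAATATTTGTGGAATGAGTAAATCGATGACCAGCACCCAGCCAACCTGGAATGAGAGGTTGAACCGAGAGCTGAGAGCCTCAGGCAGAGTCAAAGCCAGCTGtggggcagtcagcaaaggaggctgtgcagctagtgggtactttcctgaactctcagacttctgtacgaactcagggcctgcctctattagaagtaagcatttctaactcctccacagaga
Gm34907, L3b, chr14:103463674-103463973, plus strand: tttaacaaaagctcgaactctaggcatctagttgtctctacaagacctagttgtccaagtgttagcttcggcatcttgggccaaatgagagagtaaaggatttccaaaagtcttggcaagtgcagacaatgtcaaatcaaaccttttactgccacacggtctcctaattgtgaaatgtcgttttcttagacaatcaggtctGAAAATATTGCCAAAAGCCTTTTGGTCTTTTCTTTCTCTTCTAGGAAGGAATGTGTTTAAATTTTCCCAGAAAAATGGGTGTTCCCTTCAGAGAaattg

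The capitals show how much of each window was inside the open region; the extent of the repeat itself was not at hand. The whole L1MB7 region of 274 bases fell inside the window of Gm41309, and the whole L3b region of 94 bases inside that of Gm34907. The windows of Gm52253, Gm40007 and Gm5546 shared 222, 210 and 180 bases with their regions. The GC content of the 5 windows was 39.3% to 52.7%, against a median of 52.7% over 32851 RefSeq windows. Both strands were searched for the AP-1 motif TGANTCA and the TEAD motif GGAATG, in which N is any base, and positions are counted from 1 at the 5′ end of the window. The AP-1 motif lay at base 52 of the Gm40007 window, base 103 of Gm41309 and base 43 of Gm5546, all within capitals. The TEAD motif lay at bases 89 and 126 of Gm5546 and at base 249 of Gm34907, also within capitals. Over all windows, 7.81% held the AP-1 motif and 14.7% the TEAD motif. Of the windows not printed, those of Gm36847, Gm34651, Gm13073 and Gm36216 held neither motif. That of Gm11476 held the TEAD motif only, and that of Gm13415 held both. The printed windows are a chosen few, so a match is given as a description only.

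Most open LINE regions were L1. As a class, LINE regions were shorter, less open and farther from gene starts than the average region, traits that LTR and SINE regions shared. L1 made up 1403 of the 1837 regions (76.4%), L2 317 (17.3%), CR1 89 (4.84%), RTE-X 25 (1.36%) and RTE-BovB 3 (0.163%). Of the other large repeat classes, LTR elements accounted for 3434 regions (5.35% of all) and SINEs for 1942 (3.02%). L1 was spread over 112 repeat names, led by Lx8 with 198 regions, Lx4A with 52, Lx9 with 51, Lx7 with 47 and L1_Mus3 with 45. By name, 761 L1 regions belonged to the rodent group of Lx, L1_Mus, L1_Mur and L1VL, 583 to L1M, 33 to L1Md and 25 to HAL1. L2 had 4 names, L2 with 103 regions, L2a with 91, L2b with 71 and L2c with 52. CR1 had 6 names, of which L3 held 61 regions, L3b 19, Plat_L3 4, X6B_LINE 3, and CR1_Mam and X6A_LINE 1 each.

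**Figure D1:**
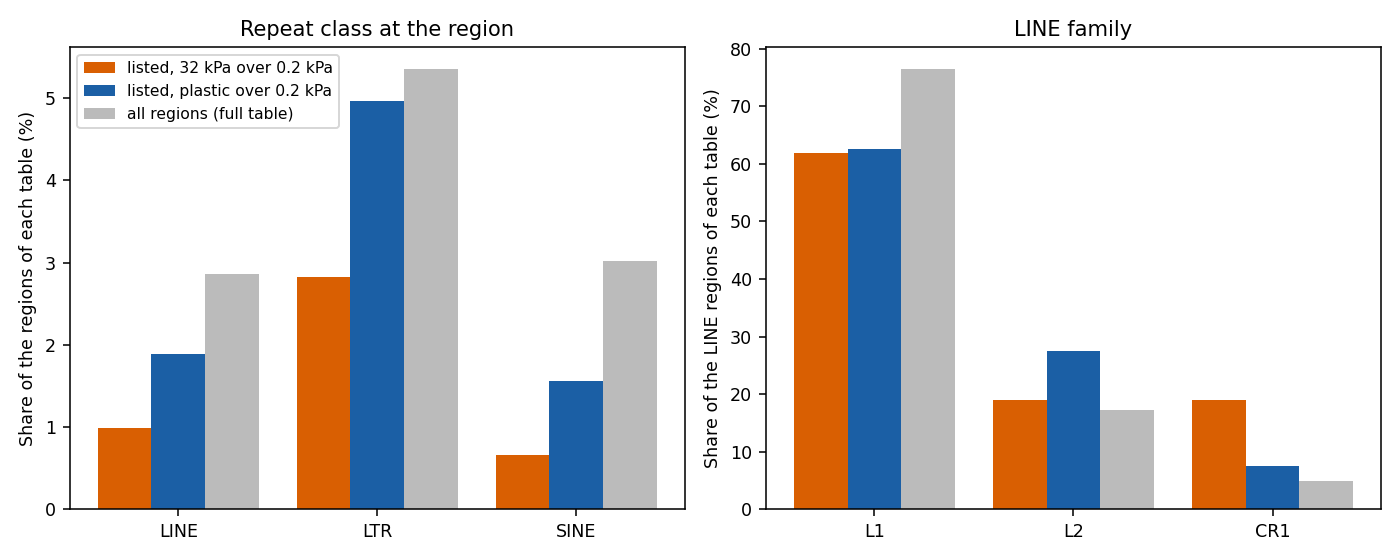
Left, the share of LINE, LTR and SINE regions among the regions of each deposited table, in percent; right, the share of L1, L2 and CR1 among the LINE regions of each table, in percent. LINE regions were 0.99% of the regions listed for 32 kPa, 1.89% of those listed for plastic and 2.86% of all regions, and L1 was 61.9%, 62.5% and 76.4% of the LINE regions.

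Open LINE regions lay in introns (767, or 41.8%) or between genes (1070, or 58.2%). Their median distance from the nearest transcription start was 45.0 kb, against 18.8 kb over all regions, 34.0 kb over intron and intergenic regions outside repeats and CpG islands, 39.0 kb for LTR and 24.4 kb for SINE regions. Among the 3 largest families the median was 36.2 kb for L2, 46.6 kb for L1 and 50.2 kb for CR1. By the deposited distances, only 5 LINE regions (0.272%) lay within 1 kb of a start, against 23.8% of all regions. The 11 that overlap a RefSeq window above are not among them, since the deposited annotation names a more distant gene for each. LTR and SINE regions were also all intronic or intergenic, with 0.233% and 0.772% within 1 kb. Scarcity near starts may thus be fixed by how repeat names were given, and is not read as a LINE trait. By the same distances, 28.6% of LINE regions lay beyond 100 kb, against 16.0% of all, 26.4% of LTR and 15.7% of SINE regions. For intron and intergenic regions outside repeats and CpG islands it was 21.3%. Median length was 155 bp for LINE and 177 bp for all regions, with 151 bp for L1, 169 bp for L2 and 173 bp for CR1. It was 162 bp for LTR, 140 bp for SINE and 165 bp for intron and intergenic regions outside repeats and CpG islands. The share of open regions that were LINE varied from 2.0% on chromosome 11 to 3.68% on chromosome 3. Chromosome X held 42 of them (2.29% of LINE regions, against 2.26% of all regions) and chromosome Y none.

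Between neighbouring open LINE regions the median gap was 818 kb. Of the pairs of neighbours, 60 were under 10 kb apart, and 23 of these under 1 kb. Such gaps depend on the number of LINE regions, and they were not measured for another class or to other open regions. Whether LINE regions cluster was not tested. The LINE regions had 1571 distinct nearest genes. The most frequent were Gm21119, a predicted gene, with 8 regions and 6820431F20Rik, a cadherin pseudogene, with 7, both on chromosome 8, followed by Lrrc4c, which encodes a synaptic adhesion protein, with 6 on chromosome 2. Vomeronasal receptor genes were nearest to 9 LINE regions (0.49%, against 0.112% of all regions) and olfactory receptor genes to 9 (0.49%, against 0.244%). Zfp zinc finger genes were nearest to 15 (0.817%, against 1.57%).

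LINE regions were less open than the average region on both stiff cultures. The median level was 3.84 on plastic and 3.74 on 32 kPa for LINE regions, against 4.24 on plastic and 4.17 on 32 kPa for all regions. Promoters stood far above, at 5.27 on plastic and 5.28 on 32 kPa. Intron and intergenic regions outside repeats and CpG islands lay between LINE and all regions, at 4.07 on plastic and 4.0 on 32 kPa. The other repeat classes were close to LINE, with LTR regions at 3.94 on plastic and 3.80 on 32 kPa and SINE regions at 3.83 on plastic and 3.67 on 32 kPa. Part of the distance to all regions went with length: per kilobase the LINE median was 6.63 on plastic and 6.50 on 32 kPa, against 6.83 on plastic and 6.74 on 32 kPa for all regions.

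The families differed in level per region. L1 regions had medians of 3.76 on plastic and 3.63 on 32 kPa, and L2 regions 4.14 on plastic and 4.03 on 32 kPa. CR1 regions had medians of 4.13 on plastic and 4.09 on 32 kPa, and the 25 RTE-X regions 4.39 on plastic and 4.19 on 32 kPa. Within L1, the L1M group had 3.86 on plastic and 3.75 on 32 kPa, and the rodent group of Lx, L1_Mus, L1_Mur and L1VL 3.72 on plastic and 3.57 on 32 kPa. The 33 L1Md regions were the lowest of the groups with 25 or more regions, at 2.46 on plastic and 2.0 on 32 kPa. Quartiles of L1, L2 and CR1 overlapped on each culture. Part of the differences between families went with length, as L1 regions were shorter. Per kilobase the medians were 6.59 on plastic and 6.46 on 32 kPa for L1, and 6.69 and 6.64 for L2. CR1 had 6.74 on plastic and 6.63 on 32 kPa, and L1Md 5.58 and 5.05. Among the 10% of all regions with the highest mean level, which began at 5.91, were 41 LINE regions (2.23% of LINE): 26 L1 (1.85%), 11 L2 (3.47%), 3 CR1 (3.37%) and 1 RTE-X.

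**Figure D2:**
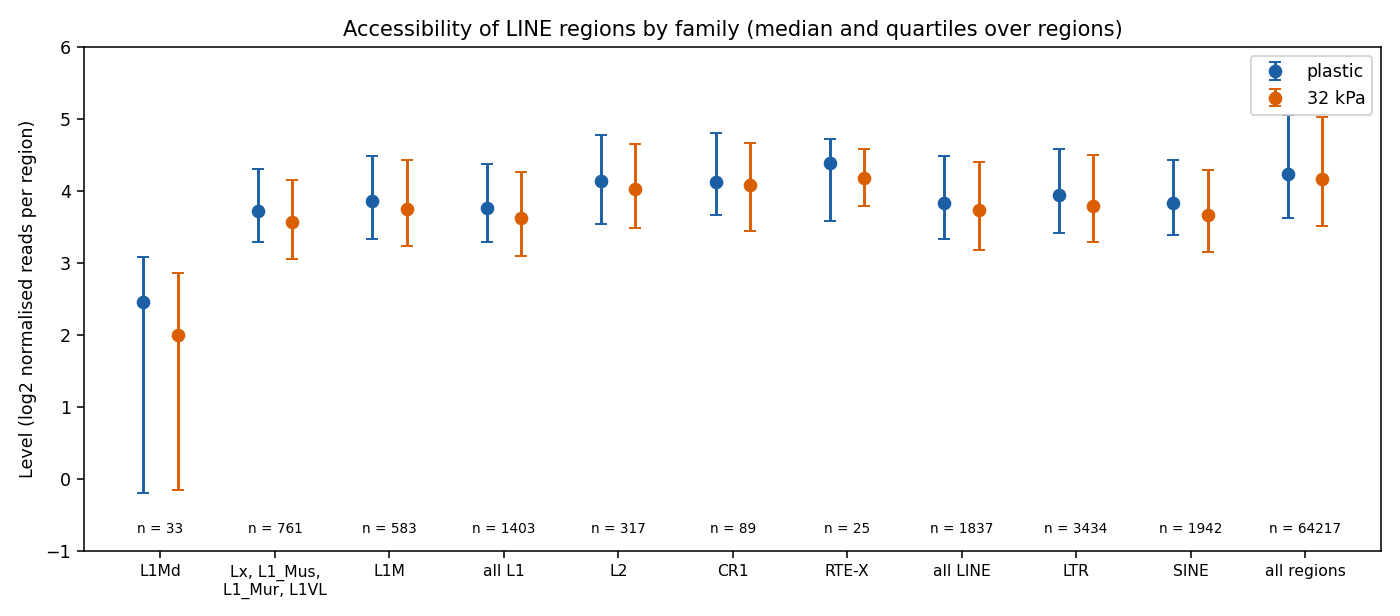
Median level with quartiles over regions, in log2 normalised reads per region, on plastic and on 32 kPa for the LINE families, the L1 groups, LTR, SINE and all regions; bars span the quartiles over regions and are no replicate error. The L1Md group sits lowest, at medians of 2.46 on plastic and 2.0 on 32 kPa, and L2 and CR1 sit above L1 on both cultures.

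The most open LINE regions stood above the upper quartile of promoters, which was 6.10 on plastic and 6.12 on 32 kPa. The highest was an L1MDb copy in an intron at chr5:111247576-111248289, nearest to Pitpnb, which encodes a phosphatidylinositol transfer protein. Its level was 7.25 on plastic and 7.54 on 32 kPa. It was followed by an L1M5 copy at chr6:127057149-127057659, 15.5 kb from Fgf23, the gene of a phosphate-regulating hormone, at 7.05 on plastic and 7.26 on 32 kPa. An L2b copy near the uncharacterised gene 4930479D17Rik reached 6.80 on plastic and 7.02 on 32 kPa. An Lx2 copy 81.1 kb from Penk, which encodes the opioid precursor preproenkephalin, had 6.94 on plastic and 6.85 on 32 kPa, and an RTE-X copy (L4_C_Mam) near 1700012H19Rik had 6.84 on plastic and 6.89 on 32 kPa. These 5 covered L1, L2 and RTE-X; only the region near Pitpnb overlapped a region listed against 0.2 kPa, that for 32 kPa.

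L1Md copies, the group that includes the young elements, stood at the other end. Of the 33, 10 (30.3%) were at the lowest level of the table on both cultures, -0.20 on plastic and -0.16 on 32 kPa, against 11 of all 1837 LINE regions (0.599%) and 57 of all 64217 regions (0.0888%). No L2 or CR1 region was at that level. By name they were 6 of 10 L1Md_T, 2 of 5 L1Md_F3, 1 of 7 L1Md_A, 1 of 9 L1Md_F2 and 0 of 2 L1Md_F regions. The other 23 had medians of 3.02 on plastic and 2.67 on 32 kPa. The highest was an L1Md_A copy near C130026I21Rik at chr1:85340180-85340292, with 4.37 on plastic and 4.0 on 32 kPa. No L1Md region reached the lowest level at which any region was listed against 0.2 kPa, and none was listed. Reads were 51 bp long, and young L1 copies are nearly alike, so a level here also depends on where reads that match several copies were placed, which was not tested.

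On 32 kPa, 21 LINE regions were listed as more open than on 0.2 kPa: 13 L1, 4 L2 and 4 CR1. They were 0.99% of the 2121 listed regions (exact 95% interval 0.614% to 1.51%, counting only). Read from the full table, 23 of 1837 LINE regions (1.25%) overlapped a listed region, against 3.31% of all 64217 regions; the 2 counts differ because each table annotates its own intervals. Of the 21, 15 lay in introns and 6 between genes. Their median level was 5.45 on 32 kPa, against 4.37 on 0.2 kPa, and their median fold was 1.18 (range 1.0 to 1.41), close to the 1.12 of all listed regions. Their FDR ran from 0.00424 to 0.0464 in the authors' deposited table, and 3 of them (14.3%) were at or under 0.01, against 33.0% of all listed regions.

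The 4 CR1 regions, all named L3, included the largest fold of the 21. The L3 copy at chr2:17316860-17317113, 247 kb from the microRNA gene Mir6419, had 5.35 on 32 kPa against 3.94 on 0.2 kPa, a fold of 1.41 in the authors' deposited table (DiffBind, FDR = 0.0156). The L3 copy in an intron at chr5:53881713-53881975, nearest to Tbc1d19, a TBC-domain gene of the family that switches off Rab GTPases, had 5.30 on 32 kPa against 3.91 on 0.2 kPa, a fold of 1.38 in the authors' deposited table (DiffBind, FDR = 0.0198). The L3 copies near Dleu2, a noncoding RNA gene, and in an intron nearest to Kalrn, a guanine nucleotide exchange factor gene, had 5.39 and 6.18 on 32 kPa, against 4.20 and 5.09 on 0.2 kPa. All 4 CR1 regions lay 72.2 kb or more from the nearest start.

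The 4 L2 regions were all intronic. The strongest was an L2a copy at chr7:97792331-97792603, 3.93 kb from the start of Pak1, the kinase through which Rac and Cdc42 act on the actin cytoskeleton. It had 6.02 on 32 kPa against 4.66 on 0.2 kPa, a fold of 1.37 in the authors' deposited table (DiffBind, FDR = 0.00479). An L2 copy nearest to Ppp2r3a, which encodes a regulatory subunit of protein phosphatase 2A, had 5.51 on 32 kPa against 4.37 on 0.2 kPa. Another nearest to Dync2li1, which encodes a dynein chain of cilia, had 5.33 on 32 kPa against 4.24 on 0.2 kPa.

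Among the 13 L1 regions the largest fold was that of an Lx9 copy in an intron at chr6:11985168-11985416, nearest to Phf14, a PHD finger gene, with 5.17 on 32 kPa against 3.80 on 0.2 kPa, a fold of 1.38 in the authors' deposited table (DiffBind, FDR = 0.0309). The lowest FDR of all 21 was that of an Lx8 copy in an intron at chr16:49904310-49904646, nearest to Cd47, which encodes the surface protein that restrains phagocytes. It had 6.19 on 32 kPa against 4.88 on 0.2 kPa, a fold of 1.32 in the authors' deposited table (DiffBind, FDR = 0.00424). The highest level was that of an L1M5 copy near Myt1l, a neuronal transcription factor gene, with 6.51 on 32 kPa against 5.43 on 0.2 kPa. By group, 8 of the 13 were L1M and 5 belonged to the rodent group.

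Of the remaining L1 regions, those near the cytoskeletal genes Myo10 and Abi1 were picked out after their values were seen, and neither gene is in the lists of contractile or adhesion genes described below. An Lx8b copy 5.92 kb from the start of Myo10, the myosin of filopodia, had 5.27 on 32 kPa against 3.96 on 0.2 kPa. An Lx8 copy nearest to Abi1, which encodes a subunit of the WAVE complex that drives actin branching, had 5.63 on 32 kPa against 4.59 on 0.2 kPa. The other L1 regions, near Zfp169, Mllt3, Nup88, Fut8, Foxn3, Cpb1, Ccdc170 and Siah1a, had 5.01 to 6.08 on 32 kPa, against 3.75 to 5.08 on 0.2 kPa. A nearest gene is that of the closest start and need not be the gene on which a region acts.

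On plastic, 40 LINE regions were listed as more open than on 0.2 kPa: 25 L1, 11 L2, 3 CR1 and 1 RTE-X. They were 1.89% of the 2114 listed regions (exact 95% interval 1.36% to 2.57%, counting only). Of the 1837 LINE regions in the full table, 40 (2.18%) overlapped a listed region, against 3.30% of all regions. Of the 40, 17 lay in introns and 23 between genes. Their median level was 5.48 on plastic, against 4.33 on 0.2 kPa, and their median fold was 1.19 (range 1.0 to 1.58), against 1.12 for all listed regions. Only 2 (5.0%) had an FDR at or under 0.01 in the authors' deposited table, against 32.7% of all listed regions.

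The largest fold of any LINE region against 0.2 kPa was that of an L2 copy at chr5:51072635-51073021, 481 kb from Ppargc1a, the coactivator gene of mitochondrial biogenesis. It had 5.23 on plastic against 3.65 on 0.2 kPa, a fold of 1.58 in the authors' deposited table (DiffBind, FDR = 0.00953). The other L2-family regions were 4 named L2, 3 L2a, 1 L2b and 2 L2c, nearest to Zmynd11, Ppp2r3a, Mir30b, Slc41a3, Plppr1, Pak1, Oas1d, 1700071K01Rik, Clca4a and Gm31641. They had 5.13 to 5.96 on plastic, against 3.92 to 4.95 on 0.2 kPa. As a family, 8 of the 11 lay in introns.

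Among the 25 L1 regions, an L1_Mus3 copy at chr2:177309721-177309896, 155 kb from Zfp970, a zinc finger gene, had the largest fold. It had 5.09 on plastic against 3.54 on 0.2 kPa, a fold of 1.55 in the authors' deposited table (DiffBind, FDR = 0.0167). An Lx8 copy in an intron at chr6:146984621-146984919, nearest to the uncharacterised gene 1700034J05Rik, had the lowest FDR of all 40. It had 5.99 on plastic against 4.52 on 0.2 kPa, a fold of 1.47 in the authors' deposited table (DiffBind, FDR = 0.00154). Its level was also the highest on plastic among the 40.

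An L1MB2 copy at chr14:8789392-8789662, near the uncharacterised gene 4930455B14Rik, had 5.44 on plastic against 4.01 on 0.2 kPa, a fold of 1.43 in the authors' deposited table (DiffBind, FDR = 0.0105). An Lx8b copy in an intron at chr2:13140648-13140904, nearest to C1ql3, which encodes a secreted C1q-like protein of synapses, had 5.38 on plastic against 3.95 on 0.2 kPa, also a fold of 1.43 in the authors' deposited table (DiffBind, FDR = 0.015). An L1MC5a copy 279 kb from Spred2, an inhibitor gene of Ras signalling to ERK, had 5.61 on plastic against 4.32 on 0.2 kPa. By group, 15 of the 25 belonged to the rodent group, 9 to L1M and 1 to HAL1, and none to L1Md. The single region on chromosome X, an Lx8 copy nearest to the exonuclease gene Trex2, had 4.97 on plastic against 3.68 on 0.2 kPa.

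The L1MC4 region whose DNA is printed above as the start of Gm40007 was among them. The table names Mc3r, the gene of a melanocortin receptor 27.9 kb away, as its nearest gene. It had 5.38 on plastic against 4.33 on 0.2 kPa, a fold of 1.04 in the authors' deposited table (DiffBind, FDR = 0.045). The 3 CR1 regions, all L3, lay near 3930402G23Rik, Mir6419 and Dleu2, with 5.11, 5.13 and 5.60 on plastic, against 3.83, 3.88 and 4.38 on 0.2 kPa. The largest fold of the 3 was 1.28, at 3930402G23Rik, in the authors' deposited table (DiffBind, FDR = 0.0336). The RTE-X region, an L4_A_Mam copy near 4930434J06Rik, had 5.32 on plastic against 4.15 on 0.2 kPa.

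**Figure D3:**
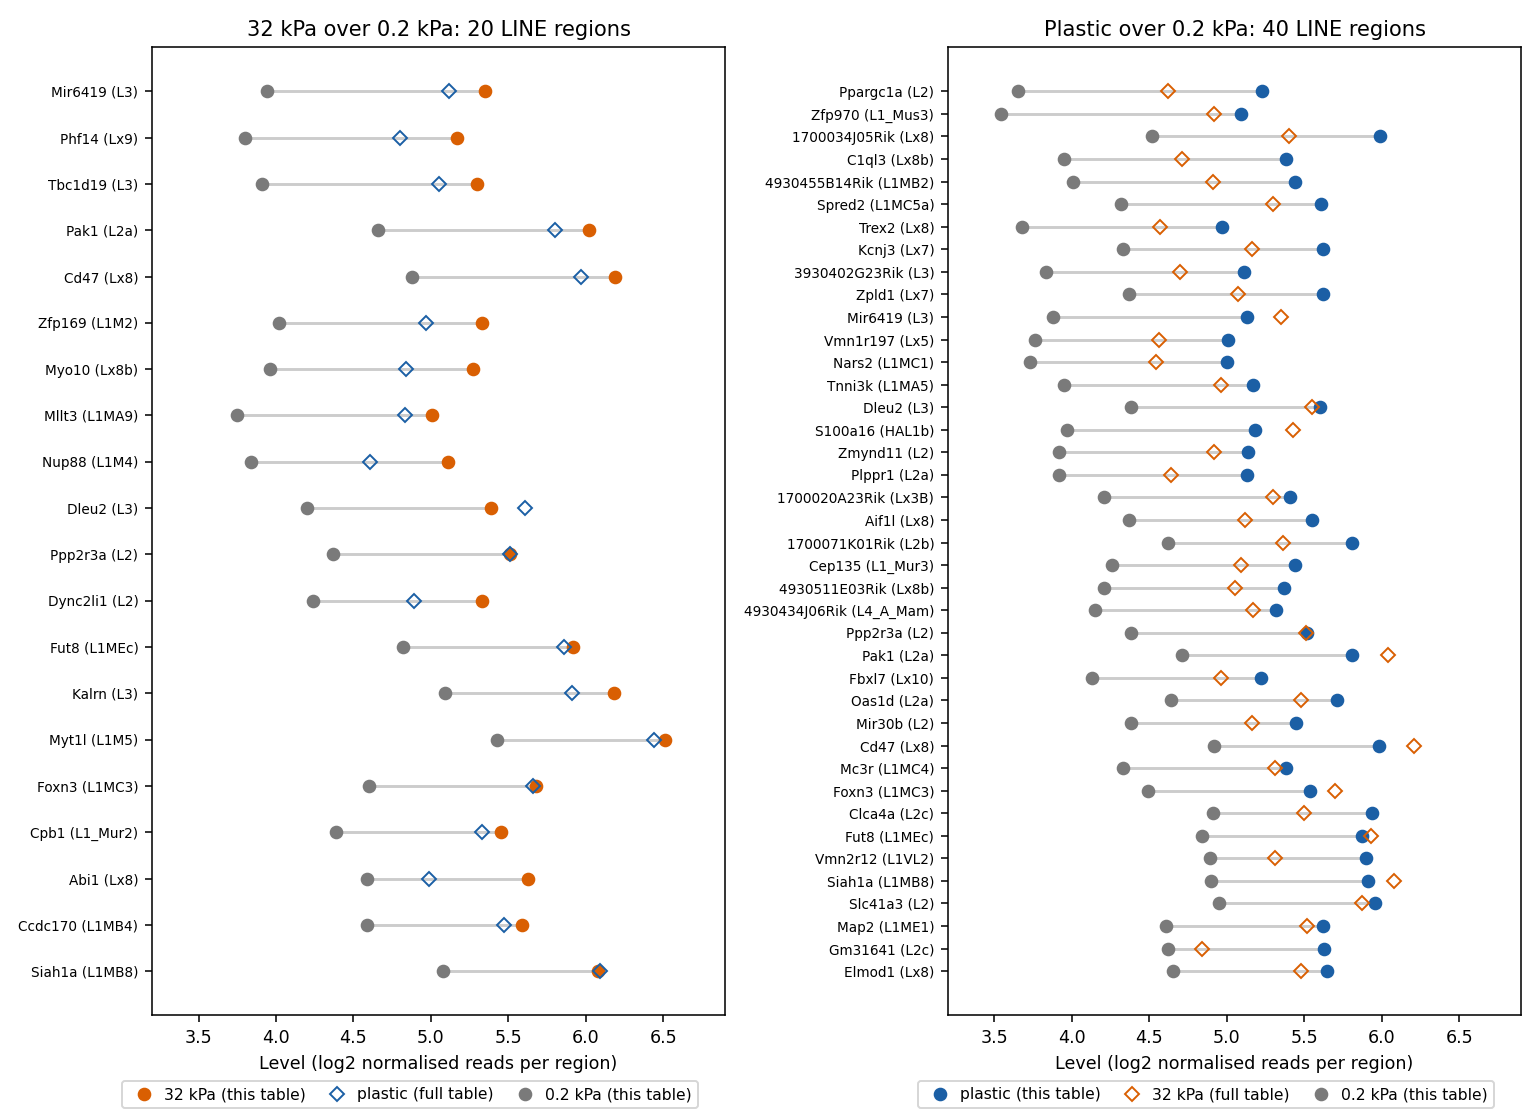
Level of each LINE region listed as higher on 32 kPa (left, 20 of the 21 regions) or on plastic (right, all 40 regions) than on 0.2 kPa, in log2 normalised reads per region; filled points are the authors' means in that comparison, open diamonds the mean on the other stiff culture in the full table, and rows run from the largest fold at the top. Every diamond lies to the right of the grey point of its row; the smallest such difference is 0.22, at Gm31641.

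The same 0.2 kPa libraries stand behind both lists, so a region found in both is no independent repeat. Of the LINE regions, 8 were listed as LINE in both tables, and the copies near S100a16 (HAL1b) and Myt1l (L1M5) were in both lists but annotated as LINE in 1 only. Their values are given side by side. By the sum of both folds the first 5 of the 8 were those near Mir6419, Pak1, Dleu2, Cd47 and Ppp2r3a. The L2a copy near Pak1 had a fold of 1.37 for 32 kPa and 1.10 for plastic in the authors' deposited tables. The L3 copy near Mir6419 had 1.41 for 32 kPa and 1.26 for plastic, and that near Dleu2 1.19 for 32 kPa and 1.21 for plastic, from the same authors' deposited tables. The Lx8 copy near Cd47 had 1.32 for 32 kPa and 1.05 for plastic, and the L2 copy near Ppp2r3a had 1.14 for both, likewise from the authors' deposited tables. The other 3, near Fut8, Foxn3 and Siah1a, were all of the L1M group, and their folds in the authors' deposited tables lay between 1.0 and 1.10.

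For regions in a single list, the level on the other stiff culture was set beside the same 0.2 kPa mean that put them in the list, so a difference above 0 is fixed in part by that choice. Read across the tables, the 12 regions found only in the 32 kPa list had plastic levels above their 0.2 kPa levels by 0.40 to 1.14, with a median of 0.91. The 31 found only in the plastic list had 32 kPa levels above their 0.2 kPa levels by 0.22 to 1.38, with a median of 0.84. Over all regions found only in 1 list, the medians were 0.86 for the 1439 of the 32 kPa list and 0.84 for the 1427 of the plastic list, so the LINE values were near those of listed regions in general. These levels come from 2 comparisons whose scaling is not given. At intervals with the same bounds in both, levels on the shared stiff culture were equal for 32 kPa (643 intervals). For plastic they lay within 0.02 (653 intervals). The levels are set side by side with no test. The smallest difference was at the L2c copy in an intron nearest to Gm31641, with 4.62 on 0.2 kPa, 4.84 on 32 kPa and 5.63 on plastic. Next to it were the Lx8 copy near Abi1, with 4.59 on 0.2 kPa, 5.63 on 32 kPa and 4.99 on plastic, and the L1VL2 copy near Vmn2r12, a vomeronasal receptor gene, with 4.89 on 0.2 kPa, 5.31 on 32 kPa and 5.90 on plastic.

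Listed regions came from the upper range of levels, which fewer LINE regions reached. No region of any kind was listed under 4.97 on 32 kPa or 4.94 on plastic. At or above those levels were 261 LINE regions on plastic (14.2%, against 28.0% of all regions) and 230 on 32 kPa (12.5%, against 26.5% of all). Of these, 15.3% overlapped a region listed for plastic (11.7% of all regions at that level) and 10.0% one listed for 32 kPa (12.5% of all). At those levels LTR regions stood at 19.1% for plastic and 11.9% for 32 kPa, and SINE regions at 13.4% and 7.29%. A share for plastic above that of all regions was thus not particular to LINE. The LINE shares of 2.18% for plastic and 1.25% for 32 kPa stood beside 1.62% for plastic and 1.33% for 32 kPa over all regions when these were weighted to the spread of LINE levels, in 10 classes of level. In the highest class for plastic 4 of 39 LINE regions (10.3%) overlapped a listed one, and in the class below 24 of 121 (19.8%), against 12.8% and 14.6% of all regions in those classes. In the next class down it was 12 of 124 (9.68%, against 5.56% of all). For 32 kPa the LINE shares, from the highest class down, were 17.9%, 9.62% and 4.48%, against 17.5%, 12.5% and 3.22% of all. No LINE region in a lower class overlapped a listed one.

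The shares of L1, L2 and CR1 regions that overlapped a listed region were too loosely fixed by their counts to set the families apart. For plastic the shares were 1.78% of L1 (exact 95% interval 1.16% to 2.62%), 3.47% of L2 (1.74% to 6.12%) and 3.37% of CR1 (0.701% to 9.54%). For 32 kPa they were 0.998% of L1 (0.547% to 1.67%), 1.58% of L2 (0.514% to 3.64%) and 4.49% of CR1 (1.24% to 11.1%). The intervals of the families overlapped in each list, and the CR1 values rest on 3 and 4 regions. LTR regions stood at 3.09% for plastic, with 1.75% for all regions at their levels, and at 1.66% for 32 kPa, with 1.52%. SINE regions stood at 1.60% for plastic, with 1.38% for all regions at their levels, and at 0.721% for 32 kPa, with 1.03%. Within L1, the rodent group stood at 1.97% for plastic, with 1.23% for all regions at its levels, and at 0.657% for 32 kPa, with 0.937%. The L1M group stood at 1.54% for plastic, with 1.66% for all regions at its levels, and at 1.37% for 32 kPa, with 1.48%.

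**Figure D4:**
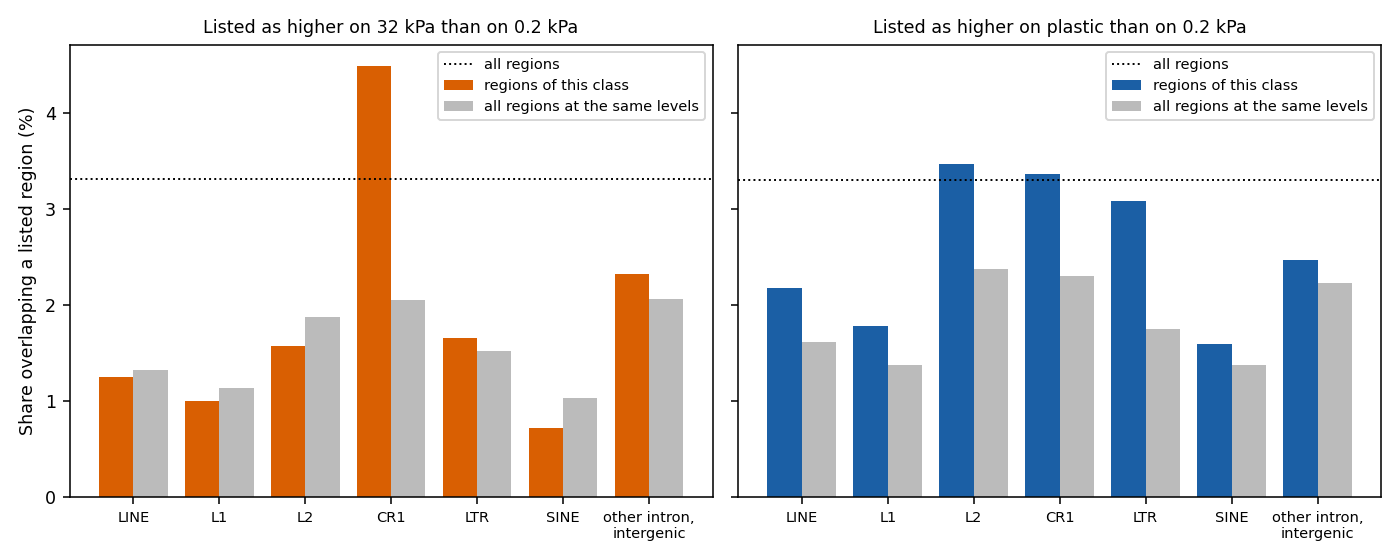
Share of the regions of each class that overlap a region listed as higher on 32 kPa (left) or on plastic (right) than on 0.2 kPa, in percent; coloured bars are the class, grey bars all regions weighted to the same levels, and the dotted line all regions. For plastic the L2 and CR1 bars reach 3.47% and 3.37%, and for 32 kPa the CR1 bar, which rests on 4 regions, is the tallest at 4.49%.

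No LINE region differed between plastic and 32 kPa at an FDR of 0.05 (0 of 1837, and 0% of all regions), since every FDR in the authors' deposited table was 1. At an unadjusted p of 0.05 or less, DiffBind gave 14 LINE regions higher on plastic (0.762%, against 0.382% of all regions) and 2 lower (0.109%, against 0.195%), so what follows describes differences in mean that did not pass the FDR. The median fold, plastic minus 32 kPa, was 0.11 for LINE, 0.12 for L1, 0.07 for L2, 0.07 for CR1 and 0.05 for all regions. LTR regions had 0.11 and SINE regions 0.16. It was above 0 at 58.8% of LINE regions, against 55.0% of all. A fold of 1 or more was seen at 111 LINE regions (6.04%, against 3.25% of all), and one of -1 or less at 30 (1.63%, against 1.42%). For LTR these shares were 5.01% and 1.75%, and for SINE 6.8% and 1.13%. An unadjusted DiffBind p of 0.05 or less, higher on plastic, was seen at 0.612% of LTR and 0.566% of SINE regions. Lower on plastic were 0.262% and 0.0515%. Higher shares on plastic than over all regions were thus not particular to LINE.

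The median fold went down as the level went up. When all regions were ranked by mean level and cut into 3 groups of near equal size, LINE regions had medians of 0.17, 0.10 and 0.05, low to high, against 0.15, 0.08 and -0.01 for all regions. The lowest group held 917 of the LINE regions (49.9%). In the highest group, L1 regions had 0.05, L2 regions 0.06 and CR1 regions 0.04, the last over 23 regions.

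**Figure D5:**
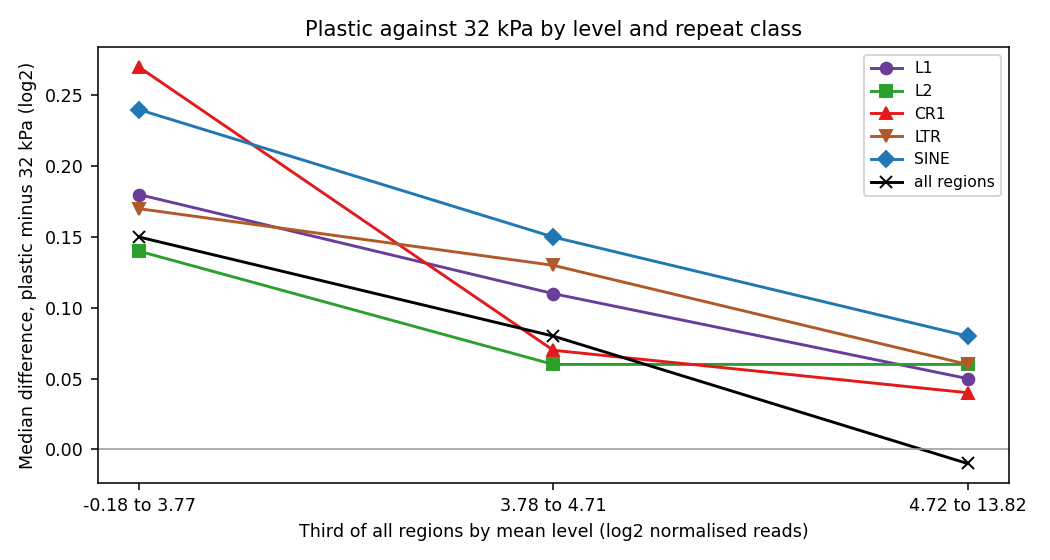
Median difference between plastic and 32 kPa (log2, plastic minus 32 kPa) over the regions of each class, in 3 groups of all regions by mean level. The lines for L1, L2, CR1, LTR, SINE and all regions end lower at the right than at the left, and at the highest levels L1 stands at 0.05 and all regions at -0.01.

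The LINE regions with the lowest p were mostly weak ones. The lowest was at an Lx2 copy 309 kb from the microRNA gene Mir6237, at chr9:9585865-9585971, with 3.71 on plastic and 0.76 on 32 kPa, a fold of 2.95 in the authors' deposited table (DiffBind, p = 0.00778, FDR = 1). The next on the plastic side were an L1MA7 copy 1.29 kb from the start of Glipr1, with 4.11 on plastic and 2.06 on 32 kPa, and an L1MB5 copy nearest to Tmem266, with 4.02 on plastic and 1.96 on 32 kPa. An Lx4A copy 735 kb from Prelid2 had 5.03 on plastic and 3.79 on 32 kPa, and an L1ME2 copy near Erlec1, which encodes a lectin of the endoplasmic reticulum, had 4.33 on plastic and 2.78 on 32 kPa. All 5 were L1, the family of 76.4% of all LINE regions.

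On the other side, 4 of the 5 were L2 or CR1, but only 2 of the 5 had an unadjusted DiffBind p of 0.05 or less. The highest p of the 5 was 0.084 (DiffBind). So few regions, none of which passed the FDR, do not set the families apart by direction. An L2c copy nearest to Ptprj, a receptor tyrosine phosphatase gene, at chr2:90542777-90543307, had 6.24 on plastic and 6.78 on 32 kPa, a fold of -0.54 in the authors' deposited table (DiffBind, p = 0.0481, FDR = 1). An L3 copy near Tcf7, a Wnt-responsive transcription factor gene, had 1.58 on plastic and 3.53 on 32 kPa, and an L2a copy 171 kb from Klf4 had 0.70 on plastic and 3.18 on 32 kPa. An L1M4 copy near Lonp2, a peroxisomal protease gene, had 3.87 on plastic and 4.79 on 32 kPa, and an L2c copy near Klhdc8a had 3.21 on plastic and 4.31 on 32 kPa. By family, the lowest fold was -2.24 for L1, at an L1M4b copy near Dscam, -2.48 for L2 near Klf4 and -1.95 for CR1 near Tcf7. The highest was 2.95 for L1, 1.36 for L2 near Slc30a6 and 0.99 for CR1 near Frk, again from the authors' deposited table.

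Genes in lists for contraction, matrix, signalling, transcription and adhesion were the nearest genes of 40 LINE regions, none of which was listed against 0.2 kPa. Nearest does not mean close, as distances to the start ran up to 470 kb, at Itga1. With 2.18% of all LINE regions listed for plastic and 1.25% for 32 kPa, a count of 0 among 40 says little of these genes. Of 29 contractile and cytoskeletal genes, 8 were the nearest gene of a LINE region, as were 9 of 32 matrix genes. The counts were 4 of 18 for the YAP, TAZ and TEAD list and 4 of 20 for TGF-beta signalling. They were 6 of 27 for transcription factors and 4 of 18 for adhesion genes. Over all genes that are nearest to a region the count was 1571 of 18171 (8.65%). Such a share also depends on how many regions a gene has. By region, LINE made up 8 of 177 for the contractile, 11 of 299 for the matrix and 4 of 132 for the YAP list. It made up 4 of 134 for TGF-beta, 9 of 237 for transcription factors and 5 of 169 for adhesion, against 2.86% of all regions. The highest on plastic was an Lx8 copy in an intron 26.2 kb from the start of Fbn1, the gene of the microfibril protein fibrillin, at 5.74 on plastic and 5.66 on 32 kPa. An L1M4b copy nearest to Mrtfa, the actin-sensing coactivator of SRF, had 5.61 on plastic and 5.26 on 32 kPa. Both were above the lowest level at which regions were listed. An L1MCa copy 15.9 kb from Tead1, which encodes a DNA-binding partner of YAP, had 5.47 on plastic and 5.78 on 32 kPa, the highest on 32 kPa of the 40, and an L1MB8 copy 6.62 kb from Myh9, a non-muscle myosin gene, had 5.04 on plastic and 4.91 on 32 kPa.

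Genes linked to LINE silencing, DNA methylation or the control of retroelements were read at their own regions. The list mixes genes of different function, Tet1, Tet2 and Tet3 among them, and not all of them silence LINEs. A median over the list therefore stands for no single activity. Of the 35 genes, 34 had an open region and none of their 99 regions was a LINE. The promoters of 32 were open, with a median fold of 0.06 between plastic and 32 kPa (range -0.58 to 0.51), and none had an unadjusted p of 0.05 or less in the authors' deposited table (DiffBind). Of the 99 regions, 1 (1.01%) overlapped a region listed for plastic and 2 (2.02%) one listed for 32 kPa, no more than the 3.30% and 3.31% of all regions. These 3 are given as values only. The promoter of Daxx, a histone chaperone gene, had 7.23 on 32 kPa against 6.22 on 0.2 kPa, a fold of 1.01 in the authors' deposited table (DiffBind, FDR = 0.00528). The promoter of Dnmt1, the maintenance DNA methyltransferase gene, had 5.75 on 32 kPa against 4.76 on 0.2 kPa, a fold of 1.0 in the authors' deposited table (DiffBind, FDR = 0.0443). A CpG island in the first part of Fam208a, which encodes the HUSH subunit Tasor, had 5.89 on plastic against 4.85 on 0.2 kPa, a fold of 1.03 in the authors' deposited table (DiffBind, FDR = 0.0209).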

How the data were processed

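Reads were aligned and handled with BWA and Picard, peaks called with MACS2 and cultures compared with DiffBind on mm10, per the submitters' processing notes, which give no versions. Read shifting, peak merging, read filters and library scaling are not given in the sources used here. Depth is unknown. The authors deposited, per region, a log2 mean of normalised reads per culture, a log2 fold, a p-value and an FDR. Annotations come from HOMER for mm10, per the file headers, and were used as deposited; 1 repeated header row was dropped. The tables against 0.2 kPa call their sides Control and Treat. At 643 intervals shared with the table that names its cultures, Control equalled the 32 kPa level, and at 653 it lay within 0.02 of the plastic level, so Control was read as the stiffer culture.

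LINE regions, families and L1 groups were taken from the annotation and the repeat names. Counts, medians, overlaps (at least 1 bp; 50% of both lengths for levels across tables) and exact Clopper-Pearson intervals were computed in Python 3.11.15 with pandas 2.3.3, numpy 2.4.6 and scipy 1.17.1, drawn with matplotlib 3.10.9 and tested on simulated data. With 1 mean per culture, no test across libraries was run. Named regions were the 5 of largest fold against 0.2 kPa, the 5 of lowest FDR in each direction between plastic and 32 kPa (all tied at 1, so the lowest p), the 5 of highest mean level, the first 5 in both lists, the extremes of each family, and those near listed genes; other listed regions and the L1Md group were added after their values were seen. Some items, 1 listed region among them, are not reported here. Members and lists were chosen with earlier results of these data known.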

Additional observations from a re-analysis of the deposited data

How the results depend on the processing

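At an FDR of 0.01 or less, 3 of the 21 LINE regions listed for 32 kPa and 2 of the 40 listed for plastic were left. The share of LINE regions that overlapped a listed region was 10.0% for 32 kPa and 15.3% for plastic among regions that reached the lowest level of a listed region, against 1.25% and 2.18% over all. Without regions within 1 kb of a start, LINE made up 1.94% of the regions listed for 32 kPa, 3.28% of those listed for plastic and 3.74% of the full table, against 0.99%, 1.89% and 2.86%. The median fold of LINE regions between plastic and 32 kPa was 0.06 in the upper part of the table by mean level, against 0.11. Per kilobase, the LINE median lay below that of all regions by a difference of -0.20 on plastic and -0.24 on 32 kPa, against -0.40 and -0.43 per region. The other 20 recomputed values, under stricter overlap, added uncertain LINE calls and removal of chromosomes X and Y among others, moved by less than 1.5 times. The cause of these shifts was not tested beyond what each setting leaves out. No paired analysis was possible because the tables hold 1 mean per culture, and for the same reason no library could be left out. Depth is unknown, and regions under a level of 4.94 were not listed for plastic, so no LINE region below that level was listed.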
